A study of Mus musculus with 47 samples.

Results

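Rcan1, Rcan2, Ppp3ca, Ppp3cb, Nfatc1, Nfatc2, Nfatc3, Camk2a, Camk2b and Camk2g are genes of the 2 main calcium-dependent signalling branches of skeletal muscle, the phosphatase calcineurin with its NFAT targets and the CaM kinases. They were chosen by gene symbol and make up 10 of the 24421 genes counted. RNA was measured in single fibres of EDL (extensor digitorum longus), a hindlimb muscle of fast-twitch fibres, from FVB/N mice aged 2 to 3 months. Of the fibres, 20 came from C2KO mice, in which Mybpc2, which encodes the fast isoform of myosin binding protein C, was disrupted in the germ line by a neomycin cassette, and 27 came from wild-type (WT) mice. All fibres of both genotypes were freed with 0.5% collagenase at 37 °C for 90 min, and no other treatment was named. The labels name 2 C2KO and 3 WT mice without tying a fibre to a mouse.

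Fibres were summed into 5 pools before any test, because fibres of 1 mouse are not replicates. C2KO fibres formed pools by the prefix of the fibre name, 740 (10 fibres) and 2445 (10 fibres), and WT fibres formed pools by sequencing run, pools 1 (10 fibres), 2 (10 fibres) and 3 (run 0092, 7 fibres). Values per fibre are gene counts scaled to a library total of 1000000 (CPM), and values per pool are CPM after TMM scaling. Fold changes are C2KO over WT from edgeR's quasi-likelihood test over the 5 pools, with the standard error (SE) and the Benjamini-Hochberg adjusted p over 12863 genes. Genes with an adjusted p under 0.05 and more than a 1.5-fold difference were called, and 0.0466% of the tested genes were, counting both directions. Each p-value refers to the variation among the 5 pools, part of which may be technical. It does not measure variation between mice, because WT pools can share mice.

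The targeted gene matched the genotype labels. Mybpc2 had 2.61 to 47.6 CPM in the C2KO fibres and 6563 to 11556 CPM in the WT fibres. Depth ran from 7648762 to 10517887 gene counts in C2KO fibres and from 7769593 to 14606631 in WT fibres. The 6 fast-fibre markers Myh4, Actn3, Mylpf, Pvalb, Tnnt3 and Ckm summed to 141852 to 177408 CPM in C2KO fibres and 139059 to 169397 CPM in WT fibres. Myh4 alone, the myosin gene of IIb fibres, had 53672 to 84212 CPM in C2KO fibres and 28821 to 78138 CPM in WT fibres. The slow myosin gene Myh7 stayed under 0.1 CPM in every pool. The 10 fibroblast markers reached a sum of 5111 CPM in the highest C2KO fibre and 366 CPM in the highest WT fibre, and 3 C2KO fibres, all of prefix 740, exceeded every WT fibre in the summed markers of endothelial, fibroblast, smooth muscle and immune cells. Fibres with over 10 Y-linked and at most 10 Xist counts formed the Y-linked class, and the reverse formed the Xist class. All fibres of prefix 740 fell in the Y-linked class and all fibres of prefix 2445 in the Xist class. Each WT pool held both classes, and 1 WT fibre met neither rule. Below, fibres with Y-linked or Xist counts are those of the class, and they can hold a few counts of the other kind. Only 3 WT fibres had 0 counts of the Y-linked gene Ddx3y. The labels give no sex, while the study describes the fibres it reanalysed as male without naming them, so the fibres with Xist counts either go against that description or were not among those fibres. Run 0092 was the only run with fibres of both genotypes, 1 C2KO and 7 WT.

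Calcineurin is a heterodimer of a catalytic A subunit and a regulatory B subunit that calcium and calmodulin switch on. It dephosphorylates NFATc transcription factors, which then enter the nucleus, and in skeletal muscle this pathway is known for its role in slow-fibre gene programmes, while RCAN proteins bind calcineurin and limit it. CaMKII is a multimeric kinase that calcium and calmodulin also activate, and that can hold part of its activity after the calcium signal through autophosphorylation.

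Rcan1 is transcribed from separate starts, and the internal start is known from other work to respond to calcineurin through NFAT sites upstream of it. RefSeq (GRCm38.p6, the build of the count files under its other name, mm10) gives a window of 300 bases around each of these 2 starts, 250 bases before and 50 after. The 2 windows are shown because the gene-level counts below pool the transcripts of both starts. The starts lie at 92466169 and 92400078 on the minus strand of chromosome 16, 66091 bases apart. Capitals mark GGAAA, the core of the NFAT motif, on either strand (read as TTTCC on the other); overlapping matches would each count.
Rcan1 first start, chr16:92466120-92466419, minus strand: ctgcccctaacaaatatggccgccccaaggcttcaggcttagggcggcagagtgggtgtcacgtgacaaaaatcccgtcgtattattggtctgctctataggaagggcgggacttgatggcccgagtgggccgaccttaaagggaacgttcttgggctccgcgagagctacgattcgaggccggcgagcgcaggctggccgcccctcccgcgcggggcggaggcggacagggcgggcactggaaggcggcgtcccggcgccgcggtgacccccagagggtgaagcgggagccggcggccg
Rcan1 internal start, chr16:92400029-92400328, minus strand: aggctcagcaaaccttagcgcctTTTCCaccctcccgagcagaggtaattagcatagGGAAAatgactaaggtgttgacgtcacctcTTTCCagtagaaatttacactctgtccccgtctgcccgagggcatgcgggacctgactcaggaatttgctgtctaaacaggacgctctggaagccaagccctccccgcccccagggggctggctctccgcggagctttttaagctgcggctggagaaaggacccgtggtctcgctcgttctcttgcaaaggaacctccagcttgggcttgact

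The window of the first start held 0 matches to the core and that of the internal start 3. Of the 32851 promoter windows in the RefSeq table, 61.3% held at least 1 match and 9.42% held at least 3, so the count at the internal start is shared with many windows. The table held 11 windows of 6 members, and among the others Ppp3cb had 4 matches, a number that 2.65% of all windows reached, and the upstream window of Nfatc2 had 3. Camk2b had 0 matches in its window. These matches describe letters in these windows and are not binding sites.

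None of the 10 members was called between C2KO and WT pools. Fold changes ran from -1.004 for Nfatc2 to 0.27 for Rcan1 on the log2 scale, with 5 members above and 5 below 0 and a median of -0.004 beside a median of -0.0004 over all tested genes. At an unadjusted p under 0.05, 0 members were higher and 2 were lower in C2KO, Nfatc2 and Camk2b, against 797 higher and 531 lower among the 12863 tested genes. In the same 2 genes the C2KO pools lay wholly below the WT pools. That held for 14.5% of all tested genes, and the opposite separation, which no member showed, for 13.1%. DESeq2 on the same pools called 1 member, Nfatc2, and limma-voom called 0.

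**Figure D1:**
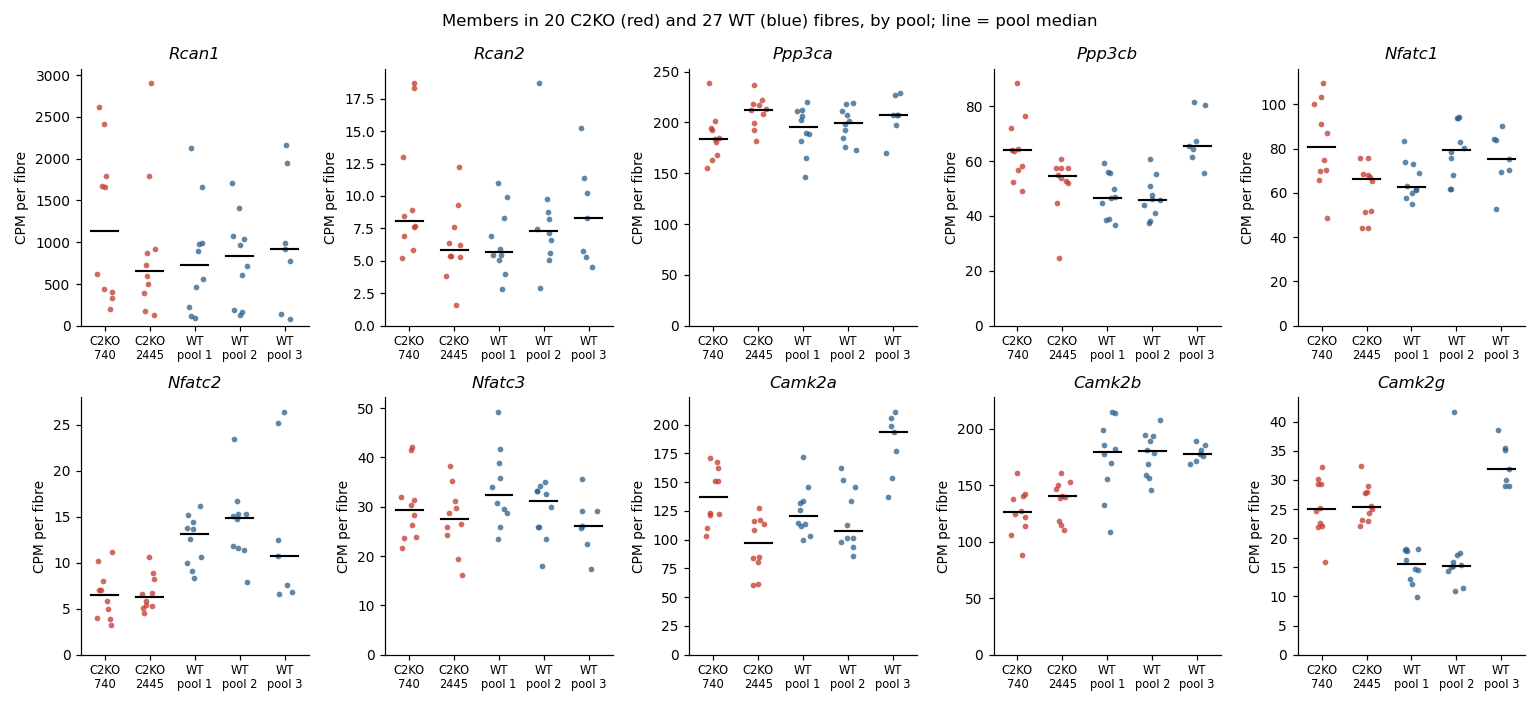
CPM of each member (vertical axes, from 0) in each of 20 C2KO fibres (red, left) and 27 WT fibres (blue, right), grouped by pool, with the pool median as a black line. Nfatc2 and Camk2b sit lower in both C2KO pools than in the 3 WT pools, Rcan1 varies widely within each pool, and Camk2g differs between WT runs.

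Nfatc2, which encodes the NFAT factor also called NFAT1, was the member that differed most. It lies on the minus strand of chromosome 2 (168476410 to 168601657, mm10). It had 6.35 and 7.09 CPM in the C2KO pools 740 and 2445, against 12.4, 14.4 and 13.6 CPM in the WT pools 1, 2 and 3. The pools did not overlap, with 6.72 ± 0.522 CPM in C2KO (SD, n = 2 pools) and 13.48 ± 0.98 CPM in WT (SD, n = 3 pools). Each WT pool held both sex-linked classes and WT pools can share mice, so the WT SD does not measure a spread between mice. The log2 fold change was -1.004 (SE 0.13), with an edgeR p of 0.00016 before and 0.137 after adjustment.

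Single fibres showed the same offset with overlap. Nfatc2 ran from 3.27 to 11.1 CPM with a median of 6.26 CPM in C2KO fibres, and from 6.64 to 26.4 CPM with a median of 12.6 CPM in WT fibres. Of the 20 C2KO fibres, 11 lay below the lowest WT fibre, and none lay above the highest. CPM are shares of the RNA of 1 fibre, so fewer nuclei with the transcript and less transcript per nucleus cannot be told apart.

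The call for Nfatc2 depended on the fit. DESeq2 on the pools gave a log2 fold change of -0.997 and an adjusted p of 6.98e-08, in a fit that called 0.445% of genes lower in C2KO. With the 47 fibres entered as samples, which treats fibres of 1 mouse as independent, edgeR gave -0.996 and an adjusted p of 2.37e-06 and called 1.69% of genes lower. Without the C2KO pool 2445 edgeR gave -1.08 and an adjusted p of 0.037, called 0.293% of genes lower and rested on a single C2KO pool. Over the 13 alternatives the log2 fold change of Nfatc2 was always negative, from -2.02 to -0.92, and the adjusted p ran from 6.98e-08 to 0.609.

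Nfatc2 was also set against the sex-linked class of the fibres. WT fibres with Xist counts had 6.64 to 15.2 CPM (median 10.0 CPM, 11 fibres) and WT fibres with Y-linked counts 10.6 to 26.4 CPM (median 14.7 CPM, 15 fibres), a log2 difference of -0.64 for Xist over Y-linked pools (SE 0.22, edgeR adjusted p = 0.46). The C2KO fibres of prefix 740, all of the Y-linked kind, had 3.27 to 11.1 CPM, and those of prefix 2445, all of the Xist kind, 4.50 to 10.6 CPM. With that class as a covariate over 8 pools the C2KO effect was -0.92 (SE 0.26, adjusted p = 0.325). The C2KO effect in the Xist class minus that in the Y-linked class was 0.81 (SE 0.44, adjusted p = 0.716), and none of the 10 members was called for such a difference, which 0.0149% of genes were. At an unadjusted p under 0.05 the count was also 0, and limma-voom called 0.

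In run 0092 the single C2KO fibre had 3.27 CPM of Nfatc2, below all 7 WT fibres of that run (6.64 to 26.4 CPM). The 3 C2KO fibres high in markers of other cells had 7.08 to 11.1 CPM, and without them the edgeR log2 fold change was -1.08. The difference was therefore as large without those fibres.

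Nfatc1 and Nfatc3 encode the NFAT factors that were more abundant in these fibres. Nfatc1 (chromosome 18, 80606205 to 80713071) had 79.4 and 64.7 CPM in the C2KO pools and 66.4, 78.9 and 74.1 CPM in the WT pools. Nfatc3 (chromosome 8, 106059603 to 106130537) had 28.8 and 29.1 CPM in C2KO, against 34.3, 29.2 and 26.3 CPM in WT. For both genes the pools overlapped, and the log2 fold changes were -0.02 (SE 0.13, adjusted p = 0.97) for Nfatc1 and -0.05 (SE 0.13, adjusted p = 0.93) for Nfatc3. The fibre medians of Nfatc1 were 69.4 CPM in C2KO and 73.2 CPM in WT, while 5 C2KO fibres lay below the lowest WT fibre and 3 above the highest.

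Counted per kb of exon, Nfatc1 made up most NFATc transcripts in every pool, 65.6% and 60.4% in C2KO and 55.4%, 61.8% and 62.4% in WT. Nfatc2 was the smaller part, 4.66% and 5.89% in C2KO pools and 9.21%, 10.0% and 10.2% in WT pools. Nfatc3 took 29.5% and 33.6% in C2KO and 35.3%, 28.2% and 27.4% in WT. Nfatc4, the remaining calcium-responsive family member, stayed at or under 0.287% in each pool and had too few counts to test. Nfat5, which responds to osmotic stress and does not bind calcineurin, had 6.31 and 4.82 CPM in C2KO pools against 6.10, 2.63 and 5.18 CPM in WT pools (log2 fold change 0.26, SE 0.36, adjusted p = 0.83).

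Camk2b encodes the beta subunit of CaMKII and lies on the minus strand of chromosome 11 (5969666 to 6065748). It had 121.3 and 145.0 CPM in the C2KO pools 740 and 2445, against 175.6, 176.5 and 176.6 CPM in the WT pools. All 3 WT pools, which can share mice, were within about 1 CPM of each other, and both C2KO pools were lower. The log2 fold change was -0.40 (SE 0.10), with an edgeR p of 0.0065 before and 0.407 after adjustment, and the fold stayed under 1.5.

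In single fibres Camk2b ran from 88.1 to 161.3 CPM in C2KO (median 138.4 CPM) and from 108.7 to 214.9 CPM in WT (median 178.3 CPM). Of the 27 WT fibres, 21 lay above the highest C2KO fibre. In run 0092 the single C2KO fibre had 127.6 CPM, below all 7 WT fibres of that run (168.6 to 189.5 CPM). The sex-linked class moved Camk2b little in WT, where the Xist pools differed from the Y-linked pools by -0.06 on the log2 scale (SE 0.08, adjusted p = 0.94). DESeq2 gave an adjusted p of 0.0294 and the fit over 47 fibres 4.02e-05, both with a fold under 1.5. Without the C2KO pool 740 the log2 fold change was -0.28.

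**Figure D2:**
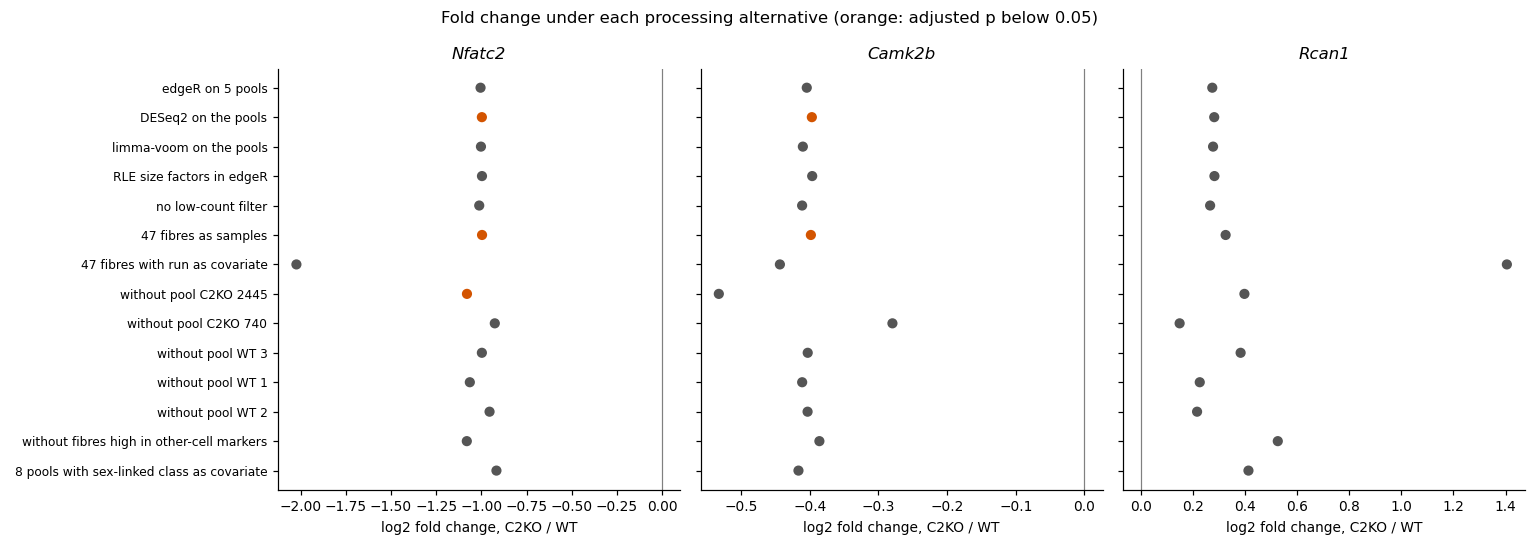
Log2 fold change of Nfatc2, Camk2b and Rcan1 in C2KO over WT (horizontal axes) in the edgeR fit over 5 pools and in 13 alternatives (vertical axis), with orange points where the adjusted p was below 0.05. Nfatc2 ran from -2.02 to -0.92 and Camk2b from -0.53 to -0.28, on 1 side of 0 throughout, and Rcan1 ran from 0.15 to 1.41 with no adjusted p below 0.05. The -2.02 and the 1.41 came from the fit with run as a covariate, which rests on 1 C2KO fibre.

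Camk2a encodes the alpha subunit of CaMKII, and in muscle its gene also gives alphaKAP, an anchoring protein without a kinase domain. Counts per gene do not separate these products. Camk2a (chromosome 18, 60925632 to 60988152) had 132.3 and 100.8 CPM in the C2KO pools and 125.8, 118.0 and 180.3 CPM in the WT pools. The pools overlapped, with the highest value in WT run 0092, and the log2 fold change was -0.28 (SE 0.22, adjusted p = 0.68). All 7 fibres of that run had at least 136.7 CPM, and its C2KO fibre had 151.0 CPM.

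Camk2g encodes the gamma subunit (chromosome 14, 20734873 to 20794088). It had 24.2 and 27.5 CPM in the C2KO pools, against 15.3, 17.1 and 32.4 CPM in the WT pools 1, 2 and 3. The C2KO pools thus lay between those of the WT runs, and the log2 fold change was 0.26 (SE 0.32, adjusted p = 0.82). WT fibres of run 0092 had 28.9 to 38.6 CPM, above every fibre of pool 1 (9.98 to 18.2 CPM) and above all of pool 2 but 1, at 41.7 CPM. The C2KO fibre of run 0092 had 32.3 CPM, inside the range of the WT fibres sequenced with it. Leaving out WT run 0092 moved the log2 fold change to 0.67, so 1 WT run set most of the WT spread.

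By counts per kb, Camk2b was the leading CaMKII transcript in all pools. It took 41.3% and 50.1% in C2KO pools and 53.2%, 55.6% and 46.3% in WT pools, a mean difference of -6.03 percentage points in C2KO (exact permutation test over pools, two-sided, p = 0.3, and 0.5 after adjustment over the 2 shares tested). The smallest p that 2 against 3 pools allow is 0.1. Camk2a took 34.98% and 27.04% in C2KO and 29.6%, 28.9% and 36.8% in WT, and Camk2g 9.26% and 10.7% in C2KO and 5.21%, 6.04% and 9.55% in WT. Camk2d, the delta subunit gene, took 14.5% and 12.3% in C2KO against 12.0%, 9.49% and 7.39% in WT, and its own level was not called (log2 fold change 0.26, SE 0.17, adjusted p = 0.64).

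**Figure D3:**
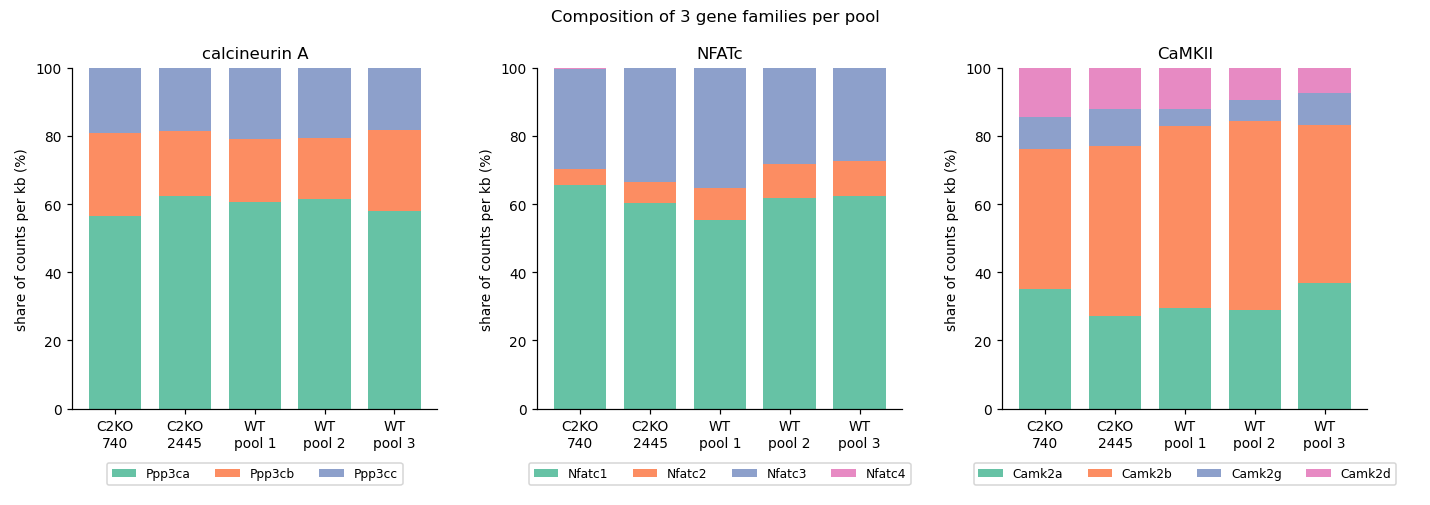
Share of counts per kb of exon (vertical axes, in percent) that each gene took of the calcineurin A, NFATc and CaMKII transcripts in the 2 C2KO pools (left) and 3 WT pools (right). Nfatc2 took 4.66% and 5.89% in C2KO and 9.21% to 10.2% in WT, and Camk2b 41.3% and 50.1% in C2KO and 46.3% to 55.6% in WT.

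Ppp3ca and Ppp3cb encode the alpha and beta forms of the catalytic subunit of calcineurin. Ppp3ca (chromosome 3, 136670066 to 136937727) had 178.8 and 221.9 CPM in the C2KO pools, against 194.0, 196.4 and 204.6 CPM in the WT pools. The C2KO pools lay on either side of the WT pools, and the log2 fold change was 0.01 (SE 0.11, adjusted p = 0.98). It was the steadiest member between fibres, from 155.5 to 238.6 CPM in C2KO and from 146.4 to 228.9 CPM in WT.

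Ppp3cb (chromosome 14, 20499314 to 20546573) had 61.7 and 54.4 CPM in the C2KO pools and 47.4, 46.2 and 67.4 CPM in the WT pools. The pools overlapped, again with the highest WT value in run 0092, and the log2 fold change was 0.11 (SE 0.18, adjusted p = 0.86). Per kb, Ppp3cb took 24.4% and 19.1% of catalytic transcripts in C2KO pools against 18.5%, 18.04% and 23.8% in WT pools, a difference of 1.60 percentage points (exact permutation test, two-sided, p = 0.5, and 0.5 after adjustment). Ppp3ca took most of the rest, 56.6% and 62.3% in C2KO and 60.7%, 61.5% and 57.9% in WT. Ppp3cc, the third catalytic gene, took 19.1% and 18.6% in C2KO and 20.8%, 20.5% and 18.3% in WT.

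Rcan1 and Rcan2 encode regulators that bind the catalytic subunit. Rcan1 (chromosome 16, 92391951 to 92466169) was the most abundant member, with 1138 and 961 CPM in the C2KO pools and 814, 797 and 995 CPM in the WT pools. The pools overlapped, and the log2 fold change was 0.27 (SE 0.13, adjusted p = 0.53). Fibres of both genotypes were far apart, with 133.7 to 2903 CPM in C2KO and 83.6 to 2160 CPM in WT. The fibre median was lower in C2KO, 674 CPM against 893 CPM in WT, although the pooled level was higher. Limits set after the values were seen show where the fibres lay: 3 of 20 C2KO and 8 of 27 WT fibres had under 300 CPM, and 7 C2KO and 5 WT fibres had over 1500 CPM. WT fibres with Xist counts had 83.6 to 2160 CPM (median 188 CPM) and those with Y-linked counts 466.3 to 1943 CPM (median 987 CPM), which overlap (log2 difference -0.89 for Xist over Y-linked pools, SE 0.48, adjusted p = 0.77). Without the 3 C2KO fibres high in markers of other cells, which had 198 to 623 CPM of Rcan1, the log2 fold change was 0.52.

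Rcan2 (chromosome 17, 43801851 to 44039516) was a minor transcript, with 9.59 and 6.66 CPM in the C2KO pools and 6.56, 7.99 and 8.55 CPM in the WT pools. The log2 fold change was 0.08 (SE 0.20, adjusted p = 0.92), and the pools overlapped. Per kb, Rcan1 took 99.4% and 99.5% of the Rcan transcripts in C2KO and 99.4%, 99.3% and 99.4% in WT. Rcan3 stayed at or under 0.0625% in every pool.

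The members differed in level by far more than the genotypes did. Per kb of exon, Rcan1 averaged 415 CPM per kb in C2KO and 343 CPM per kb in WT. Ppp3ca followed with 41.3 CPM per kb in C2KO and 40.9 in WT, Camk2b with 31.96 and 42.3, and Camk2a with 21.7 and 26.4. Then came Ppp3cb with 14.95 CPM per kb in C2KO and 13.8 in WT, Nfatc1 with 9.69 and 9.84, Camk2g with 6.97 and 5.83, and Nfatc3 with 4.82 and 4.98. Rcan2 had 2.11 CPM per kb in C2KO and 2.00 in WT, and Nfatc2 0.803 and 1.61. Within each pool this order held between neighbours in all 5 pools, with 2 exceptions. Ppp3ca was above Camk2b in 2 of 5 pools, and Camk2g was above Nfatc3 in 3 of 5, so neither of these pairs has a settled order.

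The spread between fibres of 1 pool also differed between members. Rcan1 had a within-pool coefficient of variation of 81.2%, where counting error alone gives 1.02%, and its highest fibre held 34.7 times the CPM of its lowest. Rcan2 followed with 48.2% (11.1% from counting) and Nfatc2 with 40.3% (9.39% from counting). Camk2g had 23.2%, Nfatc3 22.6%, Camk2a 19.5%, Nfatc1 18.8%, Ppp3cb 17.4% and Camk2b 14.1%. Ppp3ca had 10.1%, with 2.20% from counting. Each WT pool held both sex-linked classes, so the within-pool spread includes any difference between them. Over the WT pools together, Rcan1 had a coefficient of variation of 38.8% in the 15 Y-linked fibres and 129.5% in the 11 Xist fibres.

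Among 6052 other genes with a mean of at least 10 CPM, those most like Rcan1 over the 47 fibres were Rrad, Gcc1 and Pde4b, after subtraction of each pool's mean of log2(CPM + 1). Spearman's rho was 0.97 with Rrad, a Ras-related GTPase that binds calcium channel subunits. It was 0.95 with Gcc1, a Golgi coiled-coil protein, and 0.93 with Pde4b, a phosphodiesterase of cyclic AMP. Rrad held alike in both genotypes, with 0.95 in 20 C2KO fibres and 0.97 in 27 WT fibres. The median rho of Rcan1 with all other genes was -0.05 and the 99th percentile 0.81, and both genes of each pair come from the same library, with its depth and base composition. Rrad had 24.6 to 2423 CPM in C2KO fibres and 5.81 to 2310 CPM in WT fibres.

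Of the 36 pairs among the 9 members with a mean of at least 10 CPM, Rcan1 and Nfatc1 had the lowest rho, -0.66 (-0.84 in C2KO and -0.55 in WT fibres), and Nfatc1 and Nfatc3 the highest, 0.56 (0.58 in C2KO and 0.58 in WT). With Nfatc2, Rcan1 had a rho of -0.54 in C2KO fibres and 0.25 in WT fibres, and this difference was not tested. Only pool means were subtracted, and each WT pool held both sex-linked classes, while no C2KO pool did. In WT, Xist fibres had lower medians than Y-linked fibres for Rcan1 (188 against 987 CPM) and Nfatc2 (10.0 against 14.7 CPM). Whether that mixing moved the WT rho was not tested. With 12 immediate early genes, which respond quickly to stimuli, the rho of Rcan1 ran from -0.65 for Nr4a1 to 0.76 for Nr4a2, with 9 positive, 3 negative and a median of 0.41. All 12 lay below the 99th percentile of Rcan1 over all genes, 0.81. At the other end, Nr4a1 lay just below the 1st percentile, -0.64, as did Nfatc1.

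**Figure D4:**
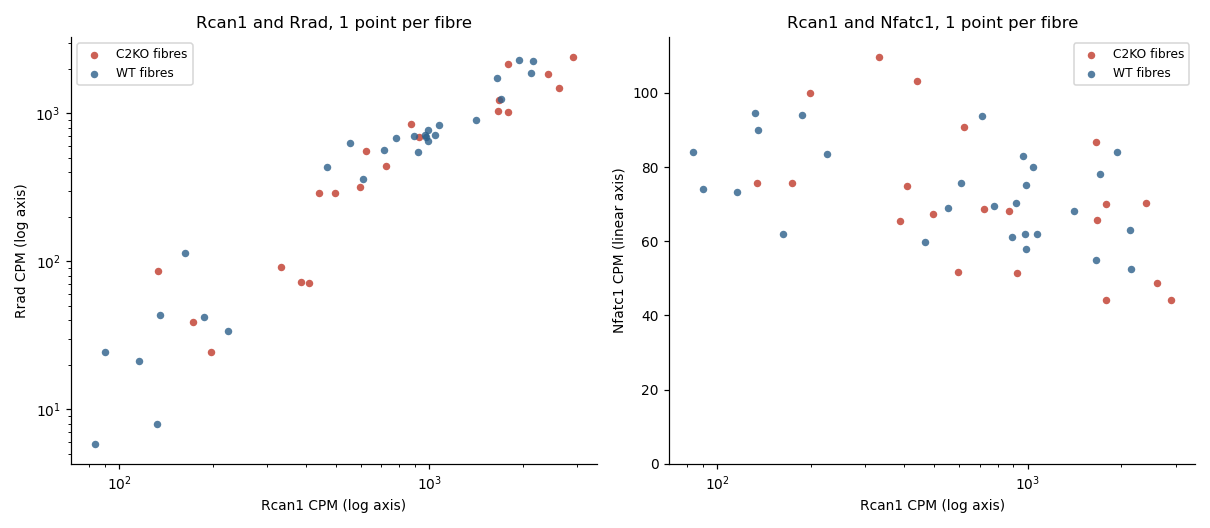
Rcan1 CPM (horizontal axes, log scale) against Rrad CPM (left, log scale) and Nfatc1 CPM (right, linear scale from 0) in each of 20 C2KO fibres (red) and 27 WT fibres (blue). Fibres with more Rcan1 had more Rrad (rho 0.97 over 47 fibres after subtraction of pool means) and tended to have less Nfatc1 (rho -0.66).

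The genes most like Nfatc2 were Synpo2l, a Z-disc protein, with a rho of 0.69, Sema6c, a semaphorin, with 0.67, and Acvr2b, an activin receptor, with 0.66. Those most like Camk2g were Ccdc6 (0.67), Atp5sl (0.61) and 2300009A05Rik (0.59). The 99th percentile over all other genes was 0.51 for Nfatc2 and 0.41 for Camk2g.

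None of the 57 other genes of the pathway lists was called, and 44 of them had enough counts to test. Of those 44, 20 lay above and 24 below 0, with a median log2 fold change of -0.04. At an unadjusted p under 0.05, 2 were higher and 4 lower in C2KO, and DESeq2 and limma-voom called 0.

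Around calcineurin, Ppp3r1, the regulatory B subunit, had 218.0 and 216.5 CPM in C2KO pools and 206.8, 180.4 and 185.3 CPM in WT pools (log2 fold change 0.19, SE 0.09, adjusted p = 0.54). The calmodulin genes Calm2 and Calm3 had log2 fold changes of 0.06 (adjusted p = 0.87) and -0.30 (adjusted p = 0.57). Of the other inhibitors and anchors 0 of 6 tested were called. Myoz1, which ties calcineurin to the Z-disc, had 2934 and 2959 CPM in C2KO and 2776, 3252 and 3052 CPM in WT, and Fkbp1a, the target of FK506, had a log2 fold change of 0.10. Chp1, a calcineurin B homologue that inhibits calcineurin, had 68.7 and 62.8 CPM in C2KO pools against 48.5, 41.9 and 44.8 CPM in WT pools, without overlap (log2 fold change 0.55, SE 0.10, p = 0.0015, adjusted p = 0.355).

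Of the 10 kinases known to phosphorylate NFAT factors, 0 were called, 3 lay above and 7 below 0. The most abundant, Csnk1a1 and Csnk1d, had log2 fold changes of -0.06 and 0.22. Gsk3b, whose phosphorylation of NFAT promotes its export from the nucleus, had 37.1 and 36.4 CPM in C2KO and 58.5, 46.7 and 42.1 CPM in WT (log2 fold change -0.42, SE 0.15, adjusted p = 0.458).

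Among the 8 tested of the 10 other CaM kinase genes, 0 were called. Camk1 had a log2 fold change of -0.19 (adjusted p = 0.61). Camk1d had 0.907 and 0.471 CPM in C2KO pools and 1.26, 1.34 and 1.76 CPM in WT pools (-1.07, SE 0.39, adjusted p = 0.458), and Pnck, a CaM kinase I, had 7.58 and 7.07 CPM in C2KO and 5.65, 5.63 and 5.63 CPM in WT (0.38, SE 0.13, adjusted p = 0.442).

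Of the class II histone deacetylases and MEF2 factors, through which CaM kinases act on muscle genes, 0 of 7 tested were called. Mef2c had 461 and 591 CPM in C2KO and 524, 521 and 463 CPM in WT, and Mef2d a log2 fold change of 0.06. Of the slow and oxidative genes 0 of 8 tested were called, with a median of -0.21, and 6 of the 14 had too few counts. Myh2, the myosin of IIa fibres, had 136.9 and 82.7 CPM in C2KO and 207.8, 174.0 and 133.0 CPM in WT (-0.64, SE 0.26, adjusted p = 0.48). Mb, myoglobin, had 41.9 and 64.0 CPM in C2KO and 64.1, 87.2 and 86.1 CPM in WT (-0.58, SE 0.22, adjusted p = 0.46), and its exons overlap those of a gene on the opposite strand.

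**Figure D5:**
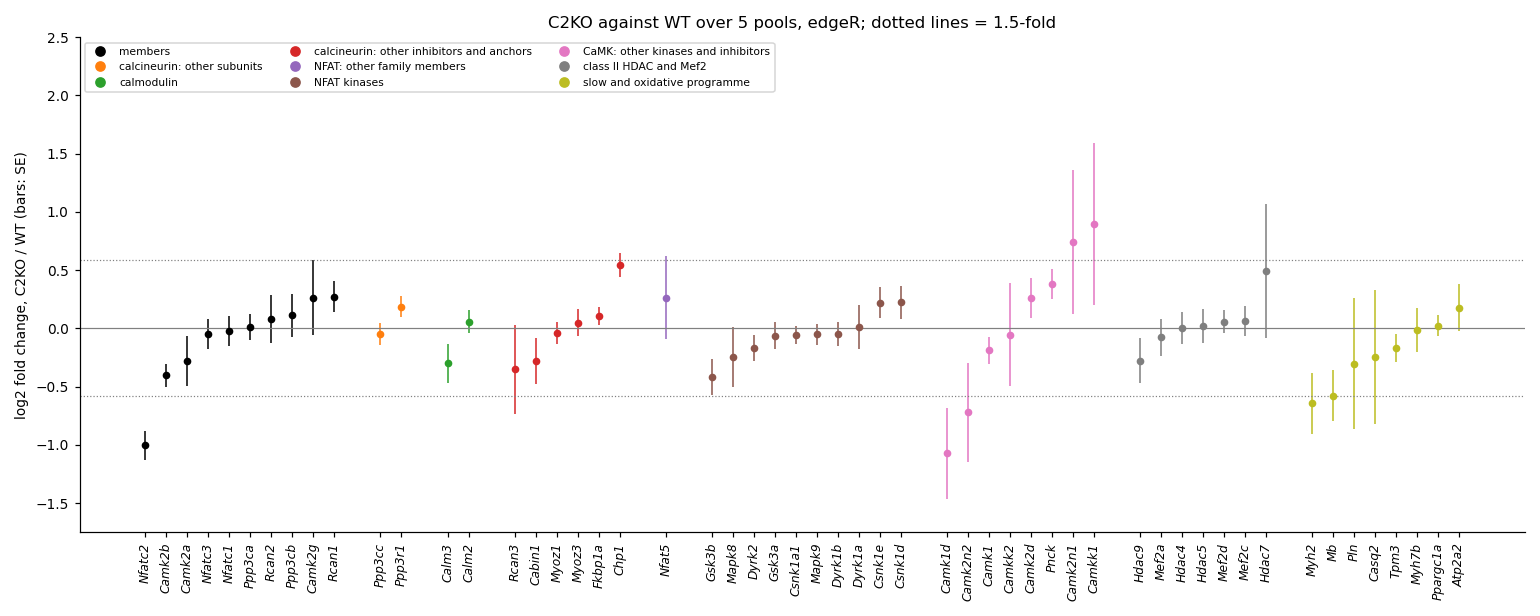
Log2 fold change in C2KO over WT (vertical axis, points) with its SE (bars) for the 10 members (black) and the 44 tested genes of the other pathway lists (colours), from edgeR over 5 pools. The dotted lines mark 1.5-fold, and no gene shown was called, Nfatc2 at -1.004 being the member farthest from 0.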

How the data were processed

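Each sample is the RNA of 1 EDL fibre. The authors deposited raw counts per gene, 1 file per fibre, for 24421 genes of mm10. Per the file headers, read pairs were counted over exons with featureCounts 1.5.2 at strand option 2, with multi-mapping reads left out. CASAVA 1.4, FastQC 0.11.2 and HISAT2 2.0.5 are named in the submitters' processing notes. No exon of the 10 members overlaps another gene in the files.

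Counts were summed into 5 pools, and edgeR 4.0.16 (R 4.3.3; TMM, filterByExpr, glmQLFit, glmQLFTest, Benjamini-Hochberg over all tested genes) compared 2 C2KO with 3 WT pools. SE is the absolute log2 fold change divided by the square root of F. The labels do not say whether a prefix marks a mouse, and WT pools can share mice. They name 3 WT mice, and each of the 3 WT pools held fibres of both sex-linked classes. If that class marks sex, the WT pools do share mice, and their spread is not a spread between mice. DESeq2 1.42.0, limma 3.58.1 and the other fits were alternatives. Only the edgeR fit over 5 pools was tried on simulated counts, and the alternatives were not. Shares per kb used the summed exon length and exact permutation tests over pools (scipy 1.17.1, Python 3.11.15). All 1081 pairs of fibres differed beyond counting error (lowest chi-square per degree of freedom 8.40).

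The members and gene lists were chosen with earlier results of these data known. Named were the 10 members, their paralogs, each called gene of a list or else its 2 most abundant, and the 3 genes most like each of the 3 members with the widest spread at a mean of at least 10 CPM. Chp1, Gsk3b, Camk1d, Pnck and the immediate early genes were named after their values were seen. Proteins were not analysed here, and promoter windows come from RefSeq (GRCm38.p6). 1 gene of the pathway lists is not reported here.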

Additional observations from a re-analysis of the deposited data

Results flagged for a closer look

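Each member was examined within each pool for a fibre that stood apart from the rest by Dixon's test at the 95% level, 50 groups in all, of which chance gives about 1 in 20. It singled out 3 fibres.

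Camk2g had 41.7 CPM in 1 WT fibre of pool 2, where the next fibre had 17.4 CPM and the pool median was 15.3 CPM. Rcan2 had 18.7 CPM in another WT fibre of pool 2, where the next had 9.76 CPM.

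Ppp3cb had 24.8 CPM in 1 C2KO fibre of prefix 2445, where the next lowest had 44.8 CPM. The same fibre had the highest Rcan1 of all fibres, 2903 CPM, and the lowest Nfatc3 (16.3 CPM) and Camk2a (60.4 CPM). Its markers of other cells summed to 6.18 CPM, and its depth of 10517887 counts was the highest of the C2KO fibres.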

How the results depend on the processing

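The count of called members was 0 in the edgeR fit over 5 pools and 1, Nfatc2, with DESeq2, with 47 fibres as samples and without the C2KO pool 2445 (0 to 1 over the fits that leave out a pool). The other pathway genes gave 0 calls, and 1, Myh2 (-0.66, adjusted p = 0.00033), with 47 fibres as samples. The share of Ppp3cb differed by -1.06 to 4.26 percentage points when a pool was left out, and turned negative without the C2KO pool 740. The share of Camk2b differed by -10.4 to -1.63 points, and with 47 fibres as samples by -6.52 (permutation p = 0.00079 from 100000 random draws). That permutation treats fibres of 1 mouse as independent, unlike the exact test over pools. Without a pool, the log2 fold change ran from -0.21 to 0.33 for Rcan2, from -0.14 to 0.16 for Ppp3ca, from -0.18 to 0.12 for Nfatc1 and from -0.13 to 0.057 for Nfatc3, so these signs are not settled. Ppp3ca was also at -0.37 with run as a covariate and at -0.00701 with the sex-linked class. The cause of these shifts was not tested. Over the 13 alternatives Ppp3cb ran from 0.017 to 0.31, Camk2a from -0.49 to -0.065 and Camk2g from 0.025 to 0.67, in each case nearly to 0, while Nfatc2 ran from -2.02 to -0.92, Camk2b from -0.53 to -0.28 and Rcan1 from 0.15 to 1.41. Over all genes the edgeR fit called 6, DESeq2 210, limma-voom 8, the fit without a low-count filter 11, the 47 fibres 485, the fit with run 35, the fit with the sex-linked class 21, the fits without a pool 1 to 358 and the pools without the 3 fibres high in other-cell markers 9. No member was called for a different C2KO effect between sex-linked classes, also with limma-voom. With run as a covariate the fold changes rest on the 1 C2KO fibre of run 0092, and run and genotype otherwise cannot be told apart. Depth limits Rcan2 and Nfatc2 most, with 16 to 247 and 25 to 342 counts per fibre. No paired analysis was possible because the replicate numbers were given in accession order within each genotype and tie no C2KO fibre to a WT fibre by mouse, day or batch.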
